A study of Homo sapiens with 4 samples.

Results

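The subunits of phosphoinositide 3-kinase (PI3K) were followed through the lists of differentially expressed mRNAs of HepG2 and Huh7 cells. The set held 10 genes, chosen by symbol with earlier results of these data known, and the Gene Ontology (GO) background held 22148. The 10 were PIK3CA, PIK3CB, PIK3CD, PIK3CG, PIK3R1, PIK3R2, PIK3R3, PIK3R5, PIK3C2B and PIK3C2G. A subunit was counted as listed when its Ensembl identifier stood under any GO term of a comparison. Both lines are widely used cell models of human liver cancer. Group A (HepG2) and group C (Huh7) were the cells before treatment, and groups B (HepG2) and D (Huh7) were the same lines after sonodynamic therapy with targeted nanobubbles that carried lonidamine (LND), an inhibitor of tumor energy metabolism, and the sonosensitizer hematoporphyrin monomethyl ether (HMME). RNA without its ribosomal fraction was sequenced, with 1 library for each of the 4 groups, so B vs. A and D vs. C each set 1 library against 1 and no value has a replicate error. No group with ultrasound alone, or with nanobubbles alone, was analysed here, and the parts of the treatment cannot be told apart.

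The values are numbers of genes. The tables used here give neither levels, nor reads, nor the direction of a change, so a listed gene differed between the libraries in one direction or the other, and its depth is unknown. The identity of the cell lines could not be checked against marker genes for the same reason. In bulk RNA, a change of RNA per cell and a loss of the cells that carry it cannot be told apart. No test was run, and the intervals below are 95% Wilson intervals that cover counting error only. They treat the genes of a list as independent draws, which genes chosen by symbol or role are not. Where an interval is set beside a background share or another interval, this is a description and not a test.

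PI3Ks phosphorylate the 3-position of the inositol ring in membrane lipids. Class I enzymes pair a catalytic subunit with a regulatory subunit. PIK3CA, PIK3CB and PIK3CD encode the class IA catalytic subunits p110 alpha, beta and delta, which bind the p85-type regulatory subunits encoded by PIK3R1, PIK3R2 and PIK3R3 downstream of receptor tyrosine kinases, whereas PIK3CG encodes p110 gamma, which binds PIK3R5 or PIK3R6 and responds to G protein beta and gamma subunits. Their product PIP3 recruits PDK1 and AKT to the membrane, and lipid phosphatases limit it. The class II enzymes PIK3C2A, PIK3C2B and PIK3C2G work without a p85-type subunit, and class III consists of PIK3C3 with PIK3R4, which serves autophagy and endosomes. In liver, the pathway carries the insulin signal that sets glucose and lipid metabolism, and it is often activated in hepatocellular carcinoma.

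After treatment, 6 of the 10 subunits were listed in HepG2 and 2 of 10 in Huh7. These are shares of 60% (31.3 to 83.2) and 20% (5.67 to 51.0), beside 21.6% of all background genes listed in HepG2 and 19.7% in Huh7. The Huh7 share lay next to the background share. The interval of the HepG2 share lay above the background share for these 10 genes. It did not for the 8 class I genes alone, of which 4 were listed (50%, 21.5 to 78.5). Nor did it for all 14 PI3K subunit genes, of which 6 were listed (42.9%, 21.4 to 67.4). The set was chosen with earlier results of these data known, and 0 of the 4 subunits outside it were listed in HepG2. The position of the interval is therefore a description and not a test. PIK3CD and PIK3CG were listed in both lines, and PIK3R1, PIK3R2, PIK3C2B and PIK3C2G in HepG2 only. No subunit of the set was listed in Huh7 only, and PIK3CA, PIK3CB, PIK3R3 and PIK3R5 were listed in neither line. Among all background genes, 10.3% were listed in both lines, 11.3% in HepG2 only and 9.43% in Huh7 only. The intervals of the 2 lines overlapped, and the difference between the lines was not tested.

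**Figure D1:**
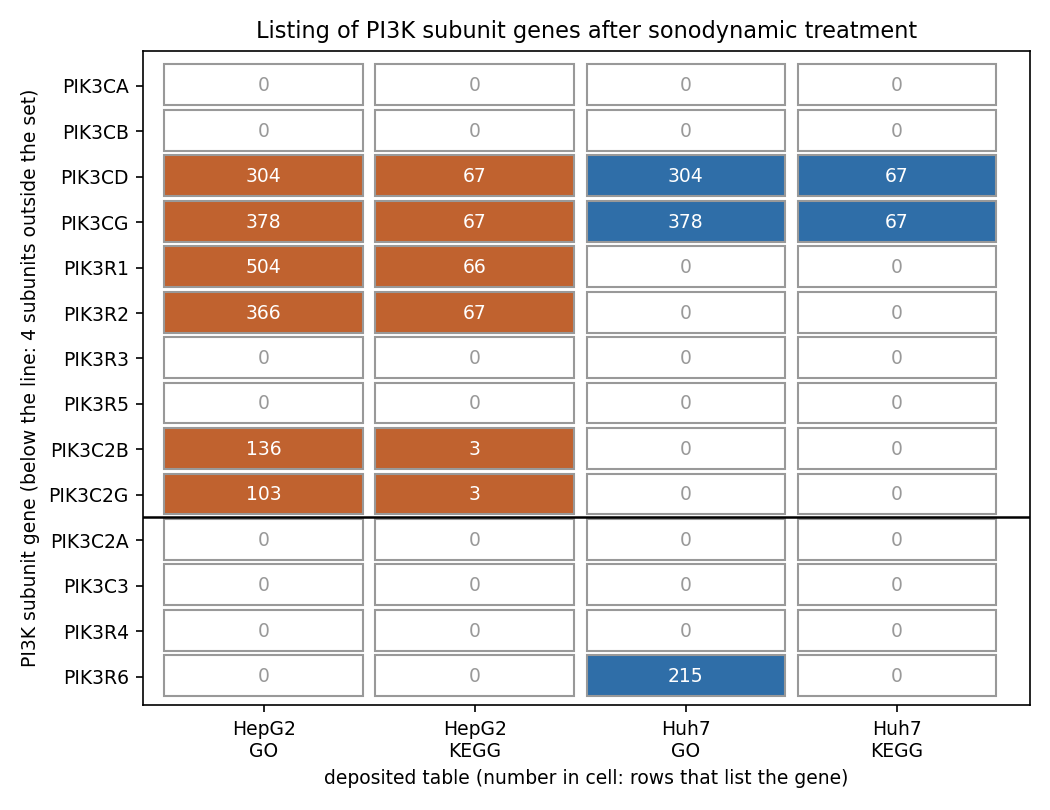
Listing of 14 PI3K subunit genes (vertical axis) in the GO and KEGG tables of HepG2 and Huh7 (horizontal axis). A filled cell marks a listed gene and the number counts the terms or pathways that list it. PIK3CD and PIK3CG are filled in all 4 columns, PIK3R1, PIK3R2, PIK3C2B and PIK3C2G in HepG2 columns only, and PIK3R6, which is outside the set, in the Huh7 GO column only.

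The class I catalytic subunits split in the same way in both lines. PIK3CD (ENSG00000171608), best known from leukocytes, stood under 304 GO terms in each line, of which 248 were biological processes, 33 molecular functions and 23 cellular components. PIK3CG (ENSG00000105851), also best known from leukocytes, stood under 378 GO terms. These numbers were equal in HepG2 and Huh7 because the annotation of a gene fixes them, so they describe how widely a subunit is annotated and not how far it changed. PIK3CA (ENSG00000121879), the catalytic subunit most often mutated in tumors, and PIK3CB (ENSG00000051382) stood under none. Thus 2 of 4 class I catalytic genes were listed in each line, a share of 50% with an interval from 15.0 to 85.0. That interval held the background shares of 21.6% and 19.7%. A gene that is not listed either did not pass the threshold of the differential expression step or stood under no GO term, so a missing listing does not show that its level was equal before and after treatment.

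To show the upstream regions of these 4 genes, which are listed in both lines or in neither, the 250 bases before the first RefSeq transcription start entry are given 5′ to 3′ on the gene's strand, with CpG dinucleotides in capitals. They lie in GRCh38.p14 at chr1:9651481-9651730 on the plus strand for PIK3CD, at chr7:106865229-106865478 on the plus strand for PIK3CG, at chr3:179148107-179148356 on the plus strand for PIK3CA and at chr3:138834929-138835178 on the minus strand for PIK3CB.
PIK3CD: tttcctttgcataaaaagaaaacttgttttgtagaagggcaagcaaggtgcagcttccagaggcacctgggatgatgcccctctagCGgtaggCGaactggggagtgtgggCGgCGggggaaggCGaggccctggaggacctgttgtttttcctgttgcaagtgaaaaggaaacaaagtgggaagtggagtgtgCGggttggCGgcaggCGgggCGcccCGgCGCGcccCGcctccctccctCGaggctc
PIK3CG: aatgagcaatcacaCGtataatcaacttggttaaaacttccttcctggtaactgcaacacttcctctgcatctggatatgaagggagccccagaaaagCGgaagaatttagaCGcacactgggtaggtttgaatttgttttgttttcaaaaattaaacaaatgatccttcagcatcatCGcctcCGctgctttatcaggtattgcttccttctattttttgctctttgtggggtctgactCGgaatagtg
PIK3CA: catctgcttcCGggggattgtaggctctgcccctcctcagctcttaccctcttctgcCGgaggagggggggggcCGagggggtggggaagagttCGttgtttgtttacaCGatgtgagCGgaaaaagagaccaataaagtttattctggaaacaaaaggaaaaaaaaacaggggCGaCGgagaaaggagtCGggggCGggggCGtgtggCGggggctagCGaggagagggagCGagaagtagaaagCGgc
PIK3CB: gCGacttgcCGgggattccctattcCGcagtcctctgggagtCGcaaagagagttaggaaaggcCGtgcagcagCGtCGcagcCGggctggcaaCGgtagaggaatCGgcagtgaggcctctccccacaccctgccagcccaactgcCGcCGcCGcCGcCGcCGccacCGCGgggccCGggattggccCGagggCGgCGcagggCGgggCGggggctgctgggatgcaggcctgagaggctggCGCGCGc

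Within this window PIK3CG held 6 CpG dinucleotides, PIK3CD 14, PIK3CA 15 and PIK3CB 27, where the median over 35116 RefSeq promoters was 11 (quartiles 3 and 23). The GC content was 41.2% for PIK3CG, 60.4% for PIK3CD, 57.6% for PIK3CA and 72.8% for PIK3CB, against a median of 58%. Other start entries of the same gene differed widely, since PIK3CD has 3 starts with 14, 33 and 3 CpG dinucleotides and PIK3CB has 2 starts with 27 and 2. Of the 14 subunits, 13 had a promoter entry, 8 of them a single one. PIK3C2G, with 3 CpG dinucleotides and a GC content of 38.4%, was the poorest of these 8, and PIK3R2 held the most with 30. Among the 13 with an entry, the first starts of the 6 subunits listed in a line held 3 to 37 CpG dinucleotides. Those of the 7 subunits listed in neither held 10 to 27, so the groups overlapped. PIK3R6, which was listed in Huh7, had no entry. The tables hold no measurement at these regions.

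A total of 5 letter strings were searched on both strands of every promoter window. The GC box GGGCGG was present in the first windows of PIK3CA, PIK3CB and PIK3CD and in 42.6% of all promoters, and CCAAT was present in those of PIK3CA and PIK3CB and in 32.0% of all promoters. GTAAACA, the core string bound by FOXO factors, which AKT holds out of the nucleus, was found in PIK3CA and in 2.98% of all promoters. GAGGAAG, an ETS-type string, was found in PIK3CG and in 11.2% of all promoters, and TATAAA in none of the 4 first windows and in 10.7% of all promoters. These matches describe letters only.

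The 4 regulatory subunits of the set were listed in HepG2 only or in neither line, whereas PIK3R6, outside the set, was listed in Huh7 only. PIK3R1 (ENSG00000145675) encodes p85 alpha, which stabilizes and restrains p110, and stood under 504 GO terms in HepG2, the most of any subunit of the set. PIK3R2 (ENSG00000105647), which encodes p85 beta, stood under 366. Neither was listed in Huh7, and PIK3R3 (ENSG00000117461), which encodes p55 gamma, and PIK3R5 (ENSG00000141506), the p101 partner of p110 gamma, were listed in neither line. In HepG2, 2 of 4 regulatory genes of the set were thus listed, and 0 of 4 in Huh7, a share of 0% with an upper bound of 49.0%. The background shares were 21.6% and 19.7%. The intervals overlapped, and the difference between the lines was not tested. PIK3R2 overlaps another protein-coding gene (ENSG00000268173) on the same strand in GENCODE release 29, and reads could have been split between them. That gene was listed in neither line. PIK3R3 has such an overlap with P3R3URF-PIK3R3, also listed in neither line.

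Both class II genes of the set were listed in HepG2 (100%, 34.2 to 100) and neither in Huh7 (0%, upper bound 65.8%). The background shares were 21.6% and 19.7%. The intervals overlapped, and the difference between the lines was not tested. PIK3C2B (ENSG00000133056) stood under 136 GO terms and PIK3C2G (ENSG00000139144), the class II form known from liver, under 103. PIK3C2G overlaps RERGL on the opposite strand, and RERGL was listed in Huh7 and not in HepG2. PIK3CD and PIK3CA also overlap genes on the opposite strand, CLSTN1 and KCNMB3, which were listed in neither line. The libraries were made with a directional kit, but the strand setting of the counting was not given in the sources used here.

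Of the 4 PI3K subunits outside the set, PIK3R6 (ENSG00000276231), the p84 partner of p110 gamma, was listed in Huh7 only, under 215 GO terms and no KEGG pathway. PIK3C2A, PIK3C3 and PIK3R4 were listed in neither line. With these included, 6 of 14 subunits were listed in HepG2 and 3 of 14 in Huh7 (21.4%, 7.57 to 47.6). Both lines thus listed p110 gamma, and Huh7 also listed 1 of its 2 partner genes.

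GO terms that name phosphatidylinositol 3-kinase were then examined, since they count the genes around the enzyme as well as its subunits. Of the 17 such terms in either table, 16 held a listed gene in HepG2 and 15 in Huh7, with a median of 32.5% and 25.0% of their background genes listed. Terms with no listed gene in either line are not in the tables. Of the 17 terms, 16 lay above the background share in HepG2 and 14 in Huh7, but 1 listed gene can carry a small term past it. All 13 terms with at least 10 background genes lay above it in both lines, with medians of 31.4% and 26.2%, and they share genes. In Huh7 the margin varied. Negative regulation of the cascade (GO:0014067) held 3 of 15 genes (7.05 to 45.2%), barely above 19.7%. Phosphatidylinositol 3-kinase activity (GO:0035004) reached 41.8% (31.5 to 52.8). The background share counts each gene once, but a gene can count in several terms. Over all KEGG gene-pathway pairs, 26.3% were listed in HepG2 and 25.8% in Huh7, the latter near the Huh7 median. That pooled KEGG share is an unlike measure beside a median over GO terms. The share over all GO terms is not given here, so whether the PI3K terms stand out among GO terms was not tested. A subunit of the set stood in 9 of the 16 terms in HepG2 and in 4 of the 15 in Huh7. Over all these terms, 76 genes were listed in HepG2, 6 of them subunits of the set, and 74 in Huh7, 2 of them subunits of the set. Both lines shared 33 of the genes, and 43 and 41 were listed in HepG2 and Huh7 only. These terms nest in each other, so their counts are not independent.

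The broadest term, phosphatidylinositol 3-kinase cascade (GO:0014065), held 48 listed genes in HepG2 and 41 in Huh7 of 153, and all 6 listed subunits were among the 48. Phosphatidylinositol 3-kinase activity (GO:0035004) held 32 and 33 listed genes of 79. The lines were thus nearly equal in this term although HepG2 had 6 subunits in it and Huh7 2, and the remaining 26 and 31 genes included shared ligands, receptors and adaptors such as BTC, HBEGF, KIT, PDGFRB and GAB2. The narrower term 1-phosphatidylinositol-3-kinase activity (GO:0016303) held 21 and 16 listed genes of 46 and again included ligands such as FGF7, FGF10, FGF18 and FLT3LG beside the subunits.

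In the term for the phosphatidylinositol 3-kinase complex (GO:0005942), 10 of 28 genes were listed in HepG2 (35.7%, 20.7 to 54.2) and 6 of 28 in Huh7 (21.4%, 10.2 to 39.5). The HepG2 genes were the 6 subunits with SOCS1 and SOCS3, suppressors of cytokine signaling, and the class III partners NRBF2 and ATG14. The Huh7 genes were PIK3CD, PIK3CG, PIK3R6, SOCS1, SOCS3 and SOCS7. PI3K regulator activity (GO:0035014) held 5 of 20 listed genes in each line. Here PIK3R1 and PIK3R2 made 2 of the 5 in HepG2 and no subunit of the set was among the 5 in Huh7. The related term GO:0046935 held 4 of 16 in each line, again with PIK3R1 and PIK3R2 in HepG2 only.

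Terms on the binding and control of the enzyme gave both orders. PI3K binding (GO:0043548) held 11 and 7 listed genes of 31, and binding of the regulatory subunit (GO:0036312) held 3 and 2 of 10, with PIK3R1 among the HepG2 genes of both. Regulation of PI3K activity (GO:0043551) held 15 listed genes in HepG2, PIK3R1 and PIK3R2 among them, and 18 in Huh7, of 57. Small terms on the 4-phosphate substrate followed the subunits directly. In 1-phosphatidylinositol-4-phosphate 3-kinase activity (GO:0035005), the listed genes of 7 were PIK3C2B, PIK3C2G, PIK3CD and PIK3CG in HepG2 and PIK3CD and PIK3CG in Huh7. The class IA complex (GO:0005943) held PIK3R1 in HepG2 and no listed gene in Huh7, of 2, and the class IB complex (GO:0005944) held PIK3CG in HepG2 and PIK3CG with PIK3R6 in Huh7, of 3.

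**Figure D2:**
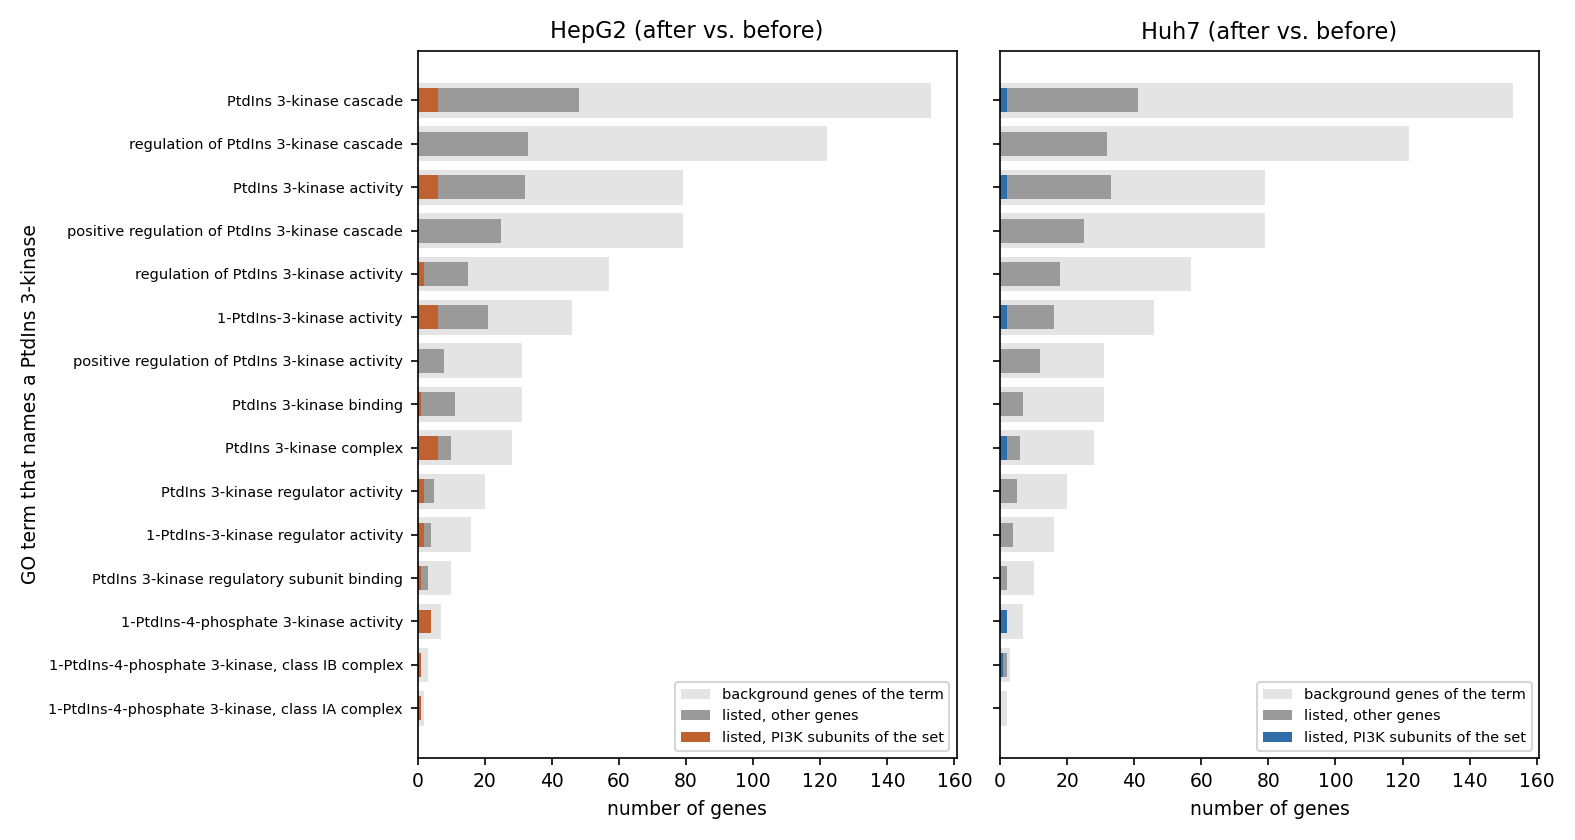
Numbers of genes (horizontal axis) in GO terms that name a phosphatidylinositol (PtdIns) 3-kinase (vertical axis), for terms with a subunit of the set or at least 20 background genes, in HepG2 (left) and Huh7 (right). Light bars give background genes, grey bars listed genes and colored bars the listed subunits of the set, which make 6 of 48 genes in the cascade term in HepG2 and 2 of 41 in Huh7.

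Of the set of 10, the KEGG tables listed the same 6 and 2 subunits as the GO tables. PIK3CD, PIK3CG and PIK3R2 each stood in 67 pathways in HepG2 and PIK3R1 in 66, and they were the 4 most widely placed of the 1693 listed genes there. In Huh7, PIK3CD and PIK3CG led the 1636 listed genes with 67 pathways each, ahead of the MAP kinase kinase gene MAP2K1 with 58. The median gene stood in 2 pathways in either line. The 6 subunits were thus 0.354% of the listed KEGG genes in HepG2 but 4.34% of the 6293 pairs of a listed gene and a pathway, and the 2 in Huh7 were 0.122% of genes and 2.17% of 6184 pairs. PIK3C2B and PIK3C2G stood in 3 pathways each, which were Phosphatidylinositol signaling system, Inositol phosphate metabolism and Metabolic pathways.

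At least 1 subunit of the set was listed in 69 of 279 pathways in HepG2 and in 67 of 280 in Huh7. In HepG2, 65 of these pathways held PIK3CD, PIK3CG, PIK3R1 and PIK3R2 together, and in Huh7 all 67 held PIK3CD with PIK3CG. PIK3R1 and PIK3R2 were absent from Inositol phosphate metabolism, where PIK3CD and PIK3CG stood, and PIK3R2 was the only subunit of the set in MicroRNAs in cancer. The subunits made a median of 12.5% of the listed genes of such a pathway in HepG2, from 0.671% to 33.3%, and 7.41% in Huh7, from 1.98% to 22.2%.

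Pathways with a subunit had a median of 27.4% of their background genes listed in HepG2, against 24.9% in the other 210 pathways. With the listed subunits taken out, the median was 24.4%. In Huh7 the medians were 25.6% with a subunit, 26.7% in the other 213 pathways and 24.1% with the subunits taken out. Over all gene-pathway pairs, 26.3% were listed in HepG2 and 25.8% in Huh7. In HepG2 40 of the 69 pathways lay above that share, and 28 did so with the listed subunits taken out, and in Huh7 33 of the 67 did, and 25 without them. Only listed subunits could be taken out, which can only lower a share, and the pathways share most of their subunits, so these are counts of overlapping pathways.

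**Figure D3:**
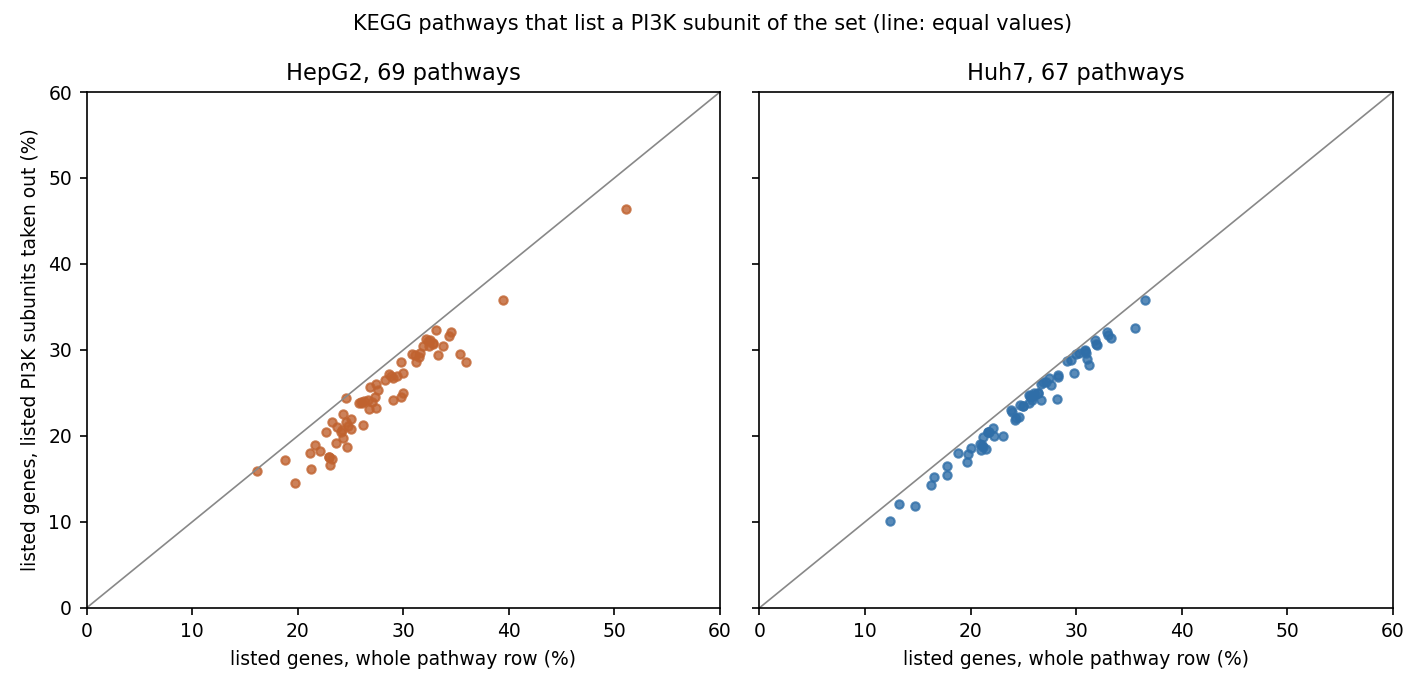
Share of listed genes in each KEGG pathway that lists a subunit of the set, with all genes (horizontal axis, %) and with the listed subunits taken out (vertical axis, %), for HepG2 (left, 69 pathways) and Huh7 (right, 67 pathways). Each point is a pathway and the line marks equal values. The points lie under the line by a median of 2.64 percentage points in HepG2 and 1.36 in Huh7.

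The subunits weighed most in small pathways. In HepG2 they were 4 of the 12 listed genes of Endometrial cancer, where the share of listed genes was 23.1% with them and 16.7% without, and 4 of 13 in both Non-small cell lung cancer and Pancreatic cancer. In Huh7 they were 2 of the 9 listed genes of Inositol phosphate metabolism and 2 of 11 in Aldosterone-regulated sodium reabsorption. In the Phosphatidylinositol signaling system, the pathway nearest to the enzymes, 20 of 81 genes were listed in HepG2 (24.7%) and 10 of 81 in Huh7 (12.3%). Of these, 6 and 2 were subunits of the set, so 14 and 8 were other genes. Both shares lay under those of all gene-pathway pairs.

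The KEGG PI3K-Akt signaling pathway (hsa04151) held 115 listed genes of 347 in HepG2 (33.1%, 28.4 to 38.3) and 101 in Huh7 (29.1%, 24.6 to 34.1). These shares were 1.26 and 1.13 times those of all gene-pathway pairs. They ranked 48 of 272 and 103 of 274 among pathways with at least 10 background genes. Its subunits of the set were PIK3CD, PIK3CG, PIK3R1 and PIK3R2 in HepG2, 4 of the 115, and PIK3CD and PIK3CG in Huh7, 2 of the 101. The class II genes were not in this pathway. The lines shared 59 genes of it, 51.3% of the HepG2 genes and 58.4% of the Huh7 genes.

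Most listed genes of the pathway lay outside the kinase itself. Matrix proteins and their receptors stood in its upstream part, with 14 collagens, 12 integrins and 4 laminins in HepG2 and 8, 9 and 6 in Huh7. The growth factor ligands of the role list used below gave 11 and 13 genes, and its receptor tyrosine kinases 6 and 5. That list does not hold every ligand of the pathway. Further fibroblast growth factors, FGF10 and FGF12 in both lines among them, were counted with 32 and 35 other genes. So were further matrix genes such as FN1 and RELN. The counts therefore do not rank the lines by all ligands or matrix genes. G protein beta and gamma subunits, which activate p110 gamma, gave 6 genes in HepG2 (GNB4, GNG3, GNG4, GNG5, GNG13 and GNGT2) and 2 in Huh7 (GNG2 and GNG13). Outputs of AKT gave 11 and 7 genes, of which CCND1, CDKN1A, FOXO3, GYS2, MYB and PCK2 were shared. Other pathways such as Pathways in cancer, with 105 and 98 listed genes of 327, and HTLV-I infection, with 70 in each line of 261, held the same 4 and 2 subunits, while Metabolic pathways, with 298 and 297 listed genes of 1213, held PIK3C2B and PIK3C2G in HepG2 and no subunit in Huh7.

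**Figure D4:**
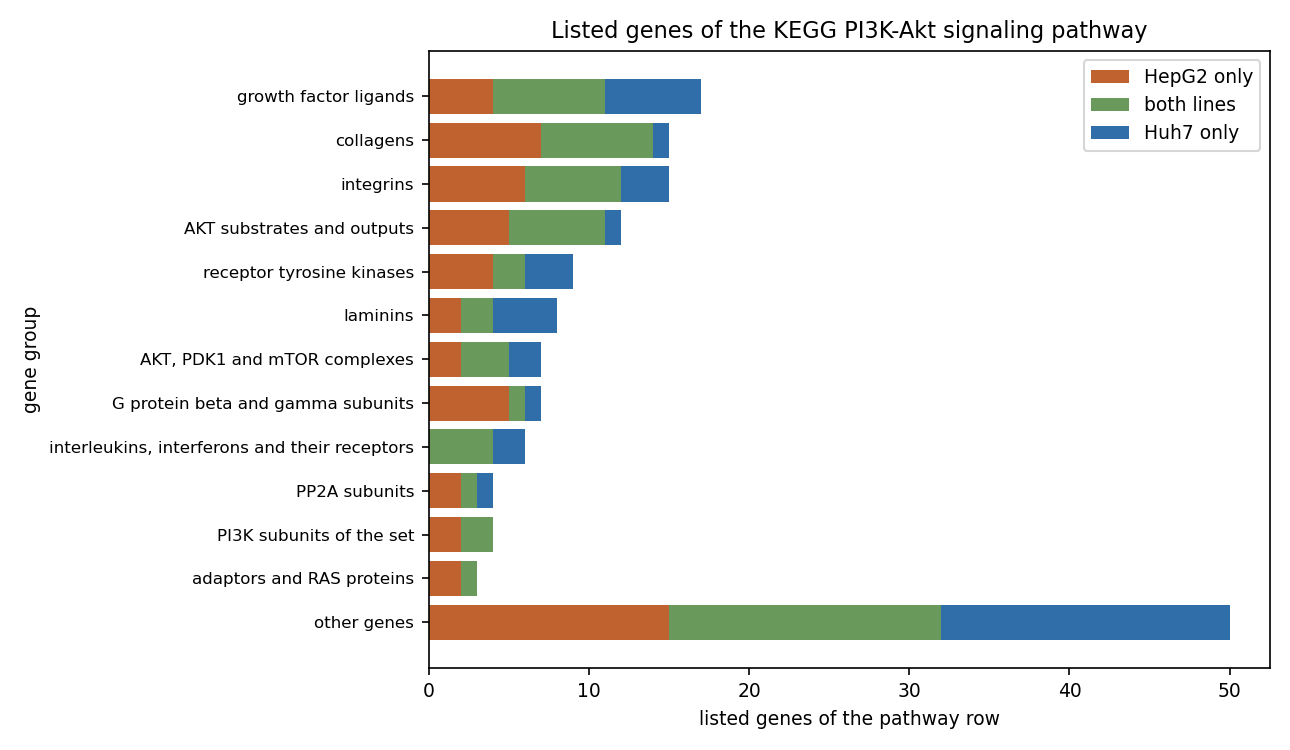
Listed genes of the KEGG PI3K-Akt signaling pathway by gene group (vertical axis), as numbers of genes (horizontal axis) listed in HepG2 only, in both lines or in Huh7 only. The subunits of the set make 4 genes, 2 of them in both lines, beside 15 collagens and 15 integrins. Other genes include further growth factor ligands and matrix genes.

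The genes that act before and after the kinase were counted by role in 8 further lists with 181 genes, of which 61 were listed in HepG2 (33.7%) and 49 in Huh7 (27.1%). Both lines shared 29 of them, 32 were listed in HepG2 only, 20 in Huh7 only and 100 in neither. Among all background genes, 21.6% were listed in HepG2 and 19.7% in Huh7. The shares were 10.3% in both lines, 11.3% in HepG2 only and 9.43% in Huh7 only. Many of these genes are also members of the pathways above, so the counts overlap with them.

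Growth factor ligands had 16 of 39 genes listed in HepG2 (41.0%, 27.1 to 56.6) and 19 of 39 in Huh7 (48.7%, 33.9 to 63.8), the highest share of these lists in Huh7. The 11 shared ligands included the vascular growth factors VEGFA and VEGFC, the fibroblast growth factors FGF7 and FGF18, the hematopoietic ligand FLT3LG and the neurotrophin BDNF. IGF1, FGF2 and EFNA5 were listed in HepG2 only, and TGFA, PDGFB and EFNA1 in Huh7 only. Receptor tyrosine kinases, which bring class IA subunits to the membrane, had 9 of 23 genes listed in HepG2 (39.1%, 22.2 to 59.2) and 8 of 23 in Huh7 (34.8%, 18.8 to 55.1). For both lists the background shares were 21.6% and 19.7%. ERBB3, whose tail carries many binding sites for p85, PDGFRB and KIT were shared, while FGFR2 and NTRK2 were listed in HepG2 only and ERBB4, FGFR4 and PDGFRA in Huh7 only.

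The intermediates between receptor and kinase gave higher counts in HepG2. G protein beta and gamma subunits had 6 of 17 genes listed there (35.3%, 17.3 to 58.7) and 2 of 17 in Huh7 (11.8%, 3.29 to 34.3), and adaptors and RAS proteins had 7 of 21 (33.3%, 17.2 to 54.6) and 2 of 21 (9.52%, 2.65 to 28.9). The adaptors GAB2 and PIK3AP1, which bind p85, were shared. IRS1 and IRS2, the substrates through which the insulin receptor reaches PIK3R1 and PIK3R2, were listed in HepG2 only, as was SHC2. In both lists the HepG2 share lay above the background share of 21.6% and the Huh7 share under that of 19.7%. The intervals of the lines overlapped. The difference between the lines was not tested.

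The list of phosphoinositide phosphatases and PI3K inhibitors, which also held INPP5A, PHLPP1 and PHLPP2, lay near the background share. In each line, 3 of its 17 genes were listed (17.6%, 6.19 to 41.0), beside background shares of 21.6% in HepG2 and 19.7% in Huh7. The 4-phosphatase INPP4B was shared, the 5-phosphatase INPP5J and the p110 inhibitor PIK3IP1 were listed in HepG2 only, and INPP5D, which encodes SHIP1, and INPP5F in Huh7 only. Of 11 other phosphoinositide kinases, PI4K2A was listed in HepG2 and none in Huh7.

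Downstream, AKT, PDK1 and the mTOR complexes had 7 of 24 genes listed in HepG2 (29.2%, 14.9 to 49.2) and 6 of 24 in Huh7 (25.0%, 12.0 to 44.9). AKT1, AKT2 and MTOR were listed in neither line, and PDPK1, which encodes PDK1, in Huh7 only. The mTORC1 brakes AKT1S1, TSC1 and DDIT4 and the translation repressor EIF4EBP1 were shared. SGK2 and MAPKAP1 were listed in HepG2 only and EIF4B in Huh7 only. AKT substrates and outputs had 12 of 29 genes listed in HepG2 (41.4%, 25.5 to 59.3) and 9 of 29 in Huh7 (31.0%, 17.3 to 49.2). For these 2 downstream lists the background shares were again 21.6% and 19.7%. The transcription factors FOXO3 and FOXO4, the cell cycle genes CDKN1A and CCND1, MYB and the gluconeogenic enzyme gene PCK2 were among the shared ones. MYC, MDM2 and NOS3 were listed in HepG2 only and FOXO6 and FASLG in Huh7 only.

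**Figure D5:**
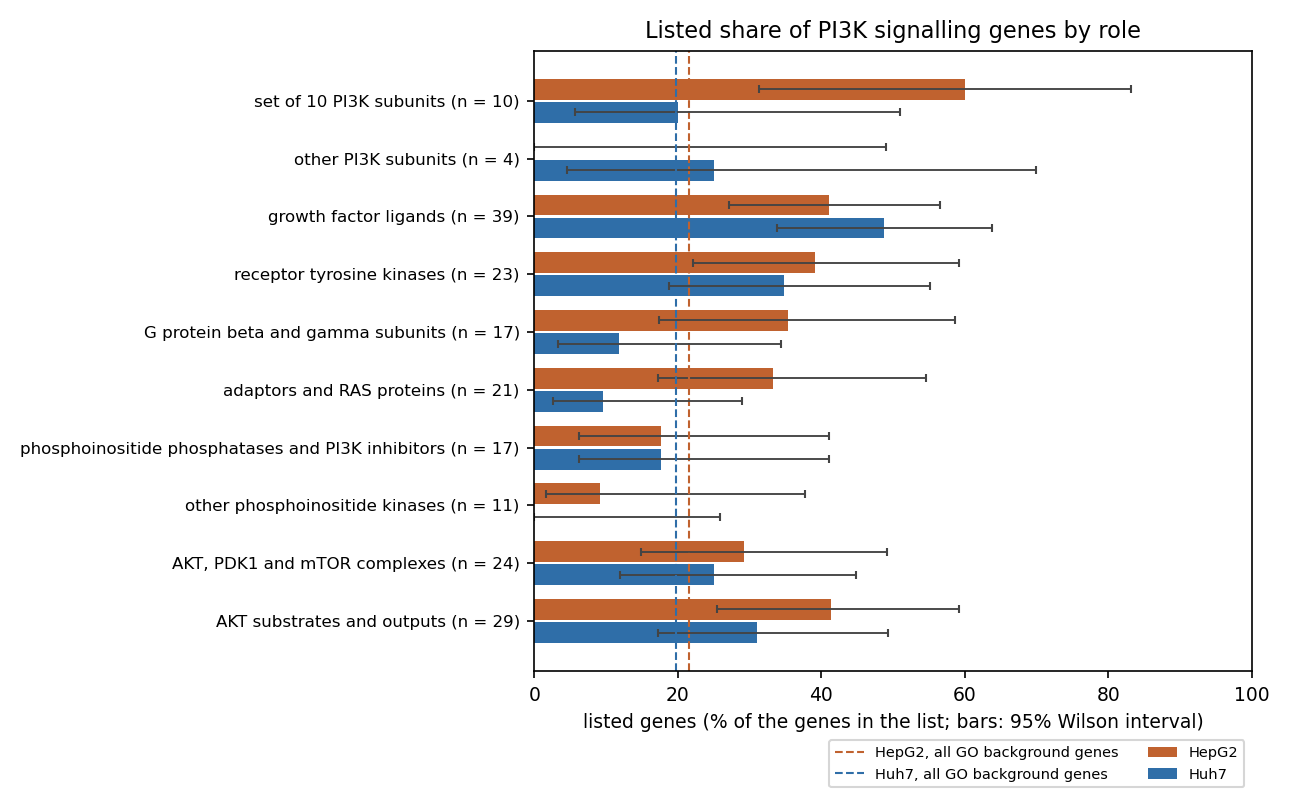
Share of listed genes (horizontal axis, % of the list) for PI3K subunits and 8 lists of signalling genes by role (vertical axis, n is the number of genes) in HepG2 and Huh7, with 95% Wilson intervals as error bars and the background shares of 21.6% and 19.7% as dashed lines. The set of 10 subunits reaches 60% in HepG2 and 20% in Huh7, and every pair of intervals overlaps.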

How the data were processed

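RNA of 4 libraries, 1 for each group, was compared as B vs. A (HepG2) and D vs. C (Huh7). Per the submitters' processing notes, the authors used HISAT2, StringTie 1.3.1, Bowtie2 2.2.8 and Cuffdiff 2.1.1. For calling differential expression, the methods of the authors name Cuffdiff and their results name edgeR, and which of them made the deposited lists was not settled here. Genes with an adjusted p-value under 0.05 entered their lists. The genome build is not given in the sources used here. The authors deposited, for each comparison, a GO table (GOseq) and a KEGG table (KOBAS) with the numbers of listed and background genes, their identifiers and enrichment p-values. These p-values were not used.

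Listings were rebuilt from the identifiers with Python 3.11.15 and checked on simulated data. Symbols came from gene name tables, with 1 gene matched through a RefSeq synonym, and gene overlaps came from GENCODE release 29 by identifier. Promoters came from RefSeq (GRCh38.p14). Wilson intervals were computed with their formula. The members and lists were chosen with earlier results of these data known. Genes were named as all subunits, then, in each list, up to 6 genes listed in both lines and up to 3 in each line only, by number of GO terms, with PDPK1, AKT1, AKT2 and MTOR always considered. Some genes that this rule names are not reported here. Pathways named were the 5 with the largest difference in listed subunits between lines, with ties ordered by pathway size, and, chosen after their values were seen, those with the largest subunit share. GO terms named were those with a subunit. Negative regulation of the cascade (GO:0014067), which held no subunit of the set, was added after its value was seen. Collagens, integrins, laminins and the remaining genes of the PI3K-Akt pathway were grouped after its genes were seen. The terms on the 4-phosphate substrate were also added then.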

Additional observations from a re-analysis of the deposited data

How the results depend on the processing

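The counts of listed subunits, the listed shares of the PI3K-Akt pathway and of the PI3K terms, and the numbers of pathways with a subunit were recomputed under 36 alternatives. Of these, 34 gave a count or a share within 1.5 times the reported one. Counts were compared as raw numbers even where the number of genes differed, as for 6 of 10 and 6 of 14. Most alternatives reread the same listings and could hardly differ, so the 34 do not measure how firm the listings are. They include alternatives under which the HepG2 interval, a description and not a test, no longer lay above the background share of 21.6%. With class I subunits only, 4 of 8 were listed (50%, lower bound 21.5), and with the 4 other subunits, 6 of 14 (42.9%, lower bound 21.4), in place of 60% with a lower bound of 31.3. The other 2 alternatives were both for the PI3K-Akt pathway. With only those of its genes that were listed in both lines, its share was 17.0%, against 33.1% in HepG2 cells and 29.1% in Huh7 cells, since fewer genes count as listed. The restriction to GO terms that name PI3K, and the addition of terms on the 4-phosphate substrate, were chosen after seeing the data. No paired analysis was possible because each group has 1 library, and leaving out a replicate could not be done for the same reason. Depth, expression level and direction of change were not used here, so how the listings depend on them was not tested.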
